A study of Mus musculus with 6 samples.

Results

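The genes described here are 38 genes of NRF2 signalling, glutathione metabolism, the thioredoxin system and the pentose phosphate pathway. They were chosen by name, with earlier results of these data known. Their transcript levels were compared between control and Carmil3 knockout 4T1 cells. All 38 were found among the 23644 genes of the deposited table by matching symbols to Ensembl gene identifiers, and all 38 passed the filter on low values, so none was left untested. 4T1 is a mouse mammary tumour cell line, and Carmil3 encodes a member of the CARMIL family, which binds actin capping protein. The 3 control libraries are labelled as wild type and the 3 knockout libraries as Carmil3 knockout, and both kinds of cell were grown in DMEM with fetal bovine serum and penicillin/streptomycin. Per the labels the knockout cells are clones that each arose from a single cell. The labels do not say how many clones were sequenced, how the knockout was made, or whether the control cells were cloned, so knockout and clone cannot be told apart. The libraries of a group are not said to come from separate cultures, and the p-values measure only the spread between these libraries, which may be technical.

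NRF2, encoded by Nfe2l2, is a transcription factor that is held in the cytoplasm and marked for degradation by KEAP1 until oxidants or electrophiles modify KEAP1. It then enters the nucleus, pairs with small MAF proteins and binds antioxidant response elements near genes that make glutathione, attach it to reactive compounds, reduce thioredoxin and supply NADPH. Glutathione and thioredoxin are the main thiol reductants of the cell. Both are kept reduced by NADPH, much of which comes from the oxidative steps of the pentose phosphate pathway.

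Values are FPKM, that is reads scaled to exon length and library size, so levels can be compared between genes. A log2 change is the difference of mean log2(FPKM + 1), knockout minus control, from limma fitted on the 11171 genes that reached 1 FPKM in 3 or more of the 6 libraries. A gene was called when its Benjamini-Hochberg adjusted p over all these genes was under 0.05. Recovered read totals lay between 17779109 and 19046797 per library, and the lowest count behind a member's value was 78 reads, for Gstk1. Carmil3 itself was listed at 0.0117 to 0.0360 FPKM in control and 0 to 0.0241 FPKM in knockout libraries, too low to check the labels. The 7 epithelial markers Epcam, Cdh1, Krt8, Krt18, Krt7, Krt19 and Krt14 summed to between 1013 and 1107 FPKM in control and between 428 and 473 FPKM in knockout libraries, and each of them was lower in the knockout; Epcam and Cdh1 averaged 0.0875 and 0.773 FPKM there. Of the other marker lists, 4 of 6 fibroblast markers were in the table and summed to between 11.4 and 12.01 FPKM in control and between 17.8 and 18.3 FPKM in knockout libraries; Pdgfra rose from 10.1 to 17.6 FPKM and Col1a1 fell from 1.501 to 0.271 FPKM. Those of leukocytes (4 of 6 in the table) summed to at most 4.58 FPKM in any library, most of it Cd68, and those of endothelial cells (3 of 4) to at most 0.068 FPKM. Ptprc averaged 0.00305 FPKM over control and 0.001003 FPKM over knockout libraries, and the 2 erythroid markers were not found in the table. The part of these marker shifts in the results below was not tested.

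The pathway did not move as one block. Of the 38 members, 10 rose, 9 fell and 19 were not called, so 19 of 38 were called where 35.6% of all tested genes were called (16.9% higher and 18.7% lower). Among the 32 members averaging 10 FPKM or more, 40.6% were called, against 38.1% of all tested genes at that level, so the share called is not itself a result about these genes. The median log2 change was 0.07 over the members and -0.01 over all tested genes. Glutathione transferase genes gave 5 of the 10 rises and the only rises with a log2 change of at least 0.5, and Nqo1 and Hmox1 gave the only falls of at least that size. Of the members 13.2% were called higher and 5.26% called lower by at least that much, against 3.71% and 4.95% of all tested genes. The share of such falls is therefore near the background and not itself a result about these genes. Which falls pass 0.5 depends on the setting. With 0.1 in place of 1 added to FPKM Txnrd2 was at -0.52, and after centring on neighbouring genes Hmox1 was at -0.30. Other call rules used below have their own backgrounds: after centring on neighbouring genes 13.3% of tested genes were called higher and 14.2% lower, limma-voom on recovered reads called 18.4% higher and 20.1% lower, and a limma test against a 1.5-fold change called 1.06% higher and 1.73% lower. The groups of libraries did not overlap for 23 members, 60.5%, where the background is 50.5%. The plot of each library against the control mean shows the member genes ordered by role.

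**Figure D1:**
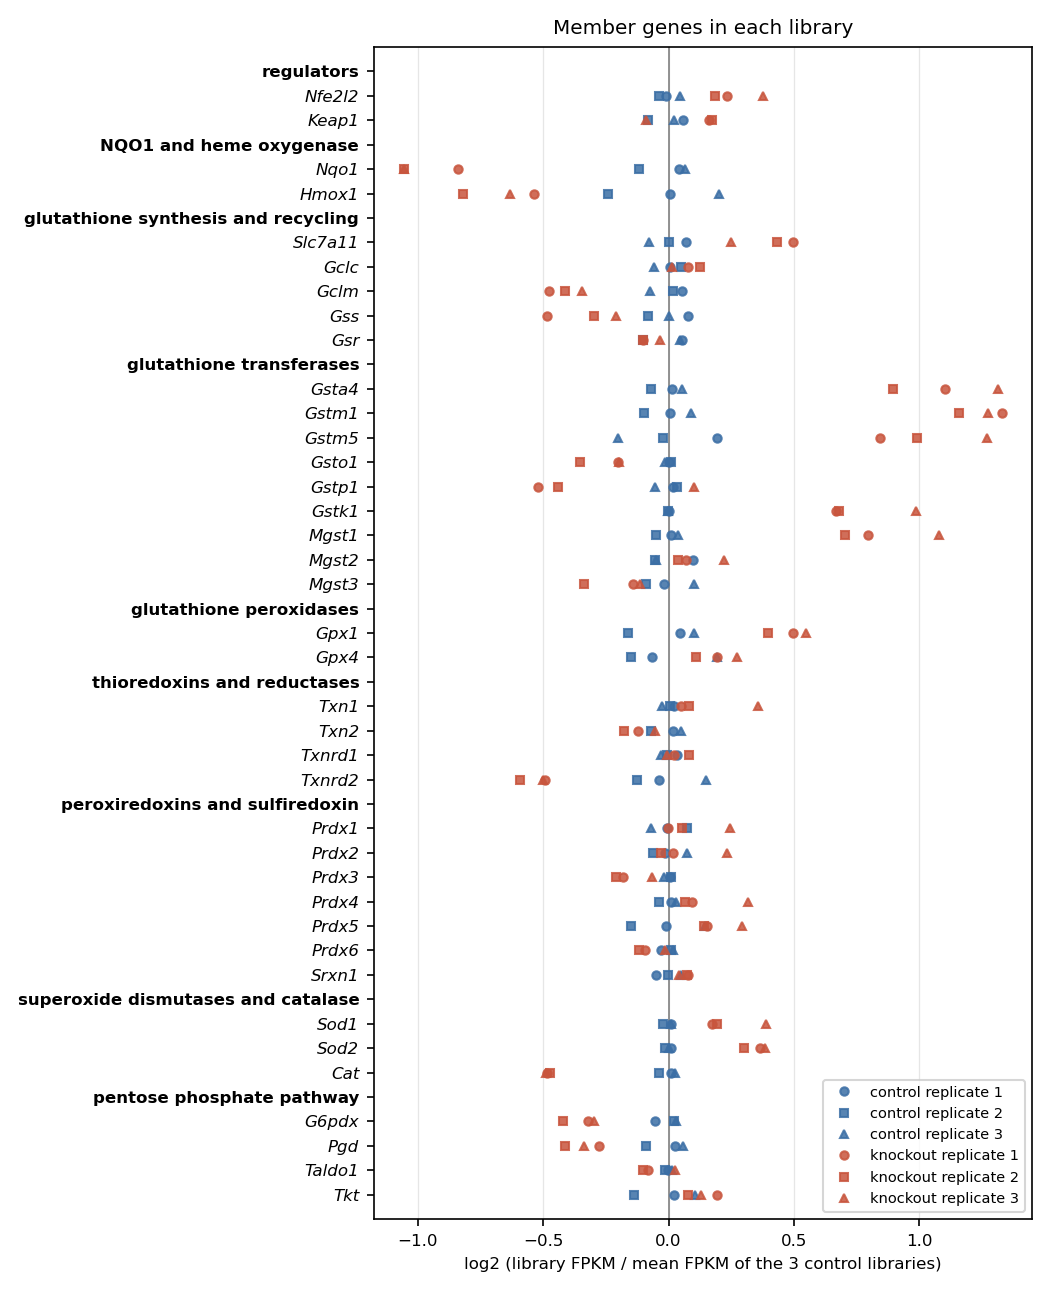
FPKM of each of the 38 members in each library, divided by the mean of the 3 control libraries and shown as log2; blue marks are control and red marks knockout libraries, and the shape gives the replicate. Gsta4, Gstm1, Gstm5, Gstk1 and Mgst1 lie to the right in all 3 knockout libraries, Nqo1, Hmox1, Gclm, Txnrd2, Cat, G6pdx and Pgd lie to the left, and knockout replicate 3 stands apart for Gstp1 and Txn1.

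Promoters of members that moved in opposite directions are shown because some of each kind hold the same antioxidant response core. The core TGACNNNGC, read on both strands, was searched in the 250 bases before each annotated start in RefSeq promoter sequences (GRCm38.p6), in which 33 of the 38 members have an entry. It was found for 8 of these 33 members, 24.2%, where 11.5% of all 27025 genes with a promoter entry hold it. Among members that rose 4 of 9 held the core, among those that fell 2 of 8, and among those not called 2 of 16. The 4 are Nfe2l2, Gstm5, Mgst1 and Sod1, the 2 are Gclm and G6pdx, and the others are Prdx1 and 1 of 3 starts of Txnrd1. A further start of Mgst1 had no core. Whether the shares of risen, fallen and uncalled members differ was not tested. No core was found for the risen Gstm1, Gstk1, Gpx1, Sod2 and Slc7a11. Nor was it found for the fallen Nqo1, Txnrd2, Cat, Pgd, Gsto1 and Gss. Gsta4 and Hmox1 have no entry and were not searched. Only the Prdx1 match overlaps an AP-1 sequence (TGACTCA or TGAGTCA). Each sequence below is given 5′ to 3′ along its gene and ends at the base before the start, with the core in capitals; it begins 240, 42, 56, 134 and 57 bases before the start in Nfe2l2, Gstm5, Mgst1, Gclm and G6pdx. The windows are chr2:75704664-75704913 (minus strand), chr3:107895604-107895853 (plus), chr6:138140277-138140526 (plus), chr3:122245307-122245556 (plus) and chrX:74428881-74429130 (minus).
Nfe2l2, rose: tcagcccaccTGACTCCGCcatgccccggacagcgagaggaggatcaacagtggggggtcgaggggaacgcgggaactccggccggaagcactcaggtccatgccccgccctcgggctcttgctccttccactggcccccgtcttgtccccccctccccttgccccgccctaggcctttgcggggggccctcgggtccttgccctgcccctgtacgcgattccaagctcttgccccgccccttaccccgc
Gstm5, rose: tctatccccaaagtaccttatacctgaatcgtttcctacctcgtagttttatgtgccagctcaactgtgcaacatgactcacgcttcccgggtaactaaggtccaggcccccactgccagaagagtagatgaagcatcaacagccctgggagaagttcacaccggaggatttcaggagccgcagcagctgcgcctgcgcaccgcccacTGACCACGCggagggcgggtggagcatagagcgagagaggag
Mgst1, rose: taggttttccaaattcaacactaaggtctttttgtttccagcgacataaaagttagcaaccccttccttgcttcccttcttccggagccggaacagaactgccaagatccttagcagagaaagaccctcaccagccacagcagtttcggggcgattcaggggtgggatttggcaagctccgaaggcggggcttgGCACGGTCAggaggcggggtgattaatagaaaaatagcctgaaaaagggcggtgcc
Gclm, fell: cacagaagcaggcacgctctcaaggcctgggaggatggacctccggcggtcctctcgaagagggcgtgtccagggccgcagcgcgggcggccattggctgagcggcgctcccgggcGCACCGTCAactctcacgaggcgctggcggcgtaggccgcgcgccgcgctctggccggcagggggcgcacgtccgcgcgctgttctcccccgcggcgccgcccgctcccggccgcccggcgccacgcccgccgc
G6pdx, fell: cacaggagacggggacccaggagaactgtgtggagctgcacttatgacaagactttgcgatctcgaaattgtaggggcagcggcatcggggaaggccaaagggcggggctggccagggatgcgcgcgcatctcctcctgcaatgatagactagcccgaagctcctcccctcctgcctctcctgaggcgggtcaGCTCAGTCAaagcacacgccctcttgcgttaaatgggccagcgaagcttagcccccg
A match is a description of these letters and not a bound site, and elements farther from the start were not searched.

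Of the regulators, the transcript of NRF2 itself was slightly higher in the knockout cells and that of its inhibitor was not called. Nfe2l2 (ENSMUSG00000015839, chromosome 2, 75675513 to 75704641, minus strand, GENCODE M21 on GRCm38) measured 52.3, 51.3 and 54.4 FPKM in control replicates 1 to 3 and 61.9, 59.8 and 68.4 FPKM in knockout replicates 1 to 3. The lowest knockout library was above the highest control library, and the ratio of means was 1.204 (log2 change 0.26, SE 0.062, limma adjusted p = 0.0120). This call was lost without control replicate 1, with a limma adjusted p of 0.0547. Keap1, which encodes the substrate adaptor that delivers NRF2 to the CUL3 ubiquitin ligase, measured 10.7, 9.76 and 10.5 FPKM in control and 11.6, 11.7 and 9.70 FPKM in knockout libraries. These ranges overlap, and the interval of its log2 change ran from -0.10 to 0.25. The annotation places an antisense gene over 10.9% of the exon bases of Keap1, and the sources used here do not give the strand setting of the counting.

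Nqo1 and Hmox1, both widely used as readouts of NRF2 activity, were lower. Nqo1 encodes the quinone reductase that uses NADPH or NADH to reduce quinones, and it lies on chromosome 8 (107388225 to 107403206). It measured 24.8, 22.2 and 25.1 FPKM in control and 13.4, 11.6 and 11.6 FPKM in knockout libraries. The knockout values were all well below the control values, with means of 24.0 ± 1.62 and 12.2 ± 1.07 FPKM (SD, n = 3), a ratio of control to knockout of 1.97 and a log2 change of -0.93 (limma adjusted p = 3.91e-05). Hmox1 encodes heme oxygenase 1, which opens the heme ring and releases iron, and it lies on the same chromosome (75093621 to 75100589). Its values were 9.30, 7.84 and 10.6 FPKM in control and 6.39, 5.25 and 5.98 FPKM in knockout libraries, again without overlap (log2 change -0.57, limma adjusted p = 0.00377). Expression over chromosome 8 was lower as a whole: the median log2 change of its 399 genes averaging 5 FPKM or more was -0.22. When each gene was centred on the 20 nearest tested genes on either side, the change of Nqo1 was -0.64 (limma adjusted p = 0.000180) and that of Hmox1 was -0.30 (limma adjusted p = 0.0762), so that Nqo1 was still called and Hmox1 was not.

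Genes for making and recycling glutathione did not all move in the same direction. Cystine is imported by the antiporter subunit Slc7a11, the ligase made of the catalytic subunit Gclc and the modifier subunit Gclm joins cysteine to glutamate, Gss adds glycine, and Gsr reduces the oxidised form with NADPH. Slc7a11 rose, with 3.83, 3.65 and 3.45 FPKM in control and 5.14, 4.93 and 4.33 FPKM in knockout libraries (ratio 1.32, log2 change 0.32, limma adjusted p = 0.0109). Gclm fell, with 14.7, 14.3 and 13.4 FPKM in control and 10.2, 10.6 and 11.1 FPKM in knockout libraries (ratio of control to knockout 1.33, log2 change -0.38, limma adjusted p = 0.00160). In both genes the groups stood apart in opposite directions. Gclc, the partner of Gclm, was at 17.9 ± 0.653 FPKM in control cells and 18.9 ± 0.726 FPKM in the knockout (SD, n = 3) and was not called, with an interval of the log2 change from -0.06 to 0.19. The ratio of Gclc to Gclm within a library was therefore 1.23, 1.30 and 1.28 in the control libraries and 1.86, 1.84 and 1.63 in the knockout libraries, which do not overlap.

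Gss was the least abundant member, at 2.94, 2.62 and 2.78 FPKM in control and 1.99, 2.27 and 2.40 FPKM in knockout libraries. It passed the test narrowly (log2 change -0.23, limma adjusted p = 0.0431) and did not pass in 10 of 15 other settings besides the test against a 1.5-fold change, among them the fits without control replicate 1, 2 or 3 or knockout replicate 1 or 2 (limma adjusted p up to 0.155). Exons of Acss2 on the opposite strand cover 6.7% of its exon bases. Gsr measured 43.4 ± 2.58 FPKM in control cells and 41.1 ± 1.10 FPKM in the knockout (SD, n = 3), with overlapping libraries and no call.

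Glutathione transferases, which attach glutathione to electrophiles, held the largest rises. Of 9 members 5 rose, 1 fell and 3 were not called, where 16.9% of all tested genes were called higher and 18.7% lower. The median log2 change was 0.62 against -0.01 over all tested genes. Gstm1, a mu-class enzyme, rose most, from 17.7, 16.5 and 18.8 FPKM to 44.4, 39.4 and 42.7 FPKM (ratio 2.39, log2 change 1.21, SE 0.067, limma adjusted p = 4.34e-06). Gsta4, an alpha-class enzyme known for conjugating the lipid peroxidation product 4-hydroxynonenal, rose from 13.2, 12.5 and 13.6 FPKM to 28.2, 24.4 and 32.7 FPKM (ratio 2.17, log2 change 1.05, limma adjusted p = 7.41e-05). In both genes the lowest knockout library was well above the highest control library. Gstm5, another mu-class enzyme, went from 5.77, 4.97 and 4.39 FPKM to 9.04, 10.0 and 12.2 FPKM (ratio 2.06, log2 change 0.91, limma adjusted p = 0.000572). Mgst1, a membrane-bound transferase that also reduces lipid peroxides, went from 10.5, 10.0 and 10.7 FPKM to 18.0, 16.9 and 21.9 FPKM (ratio 1.83, log2 change 0.80, limma adjusted p = 0.000240). Gstk1, the kappa-class enzyme of mitochondria and peroxisomes, went from 2.995, 2.99 and 2.98 FPKM to 4.75, 4.78 and 5.93 FPKM (ratio 1.73, log2 change 0.62, limma adjusted p = 0.000702). None of these 5 groups overlapped, and the 5 calls held in each alternative in which the gene was tested except the test against a 1.5-fold change, which Gstm1 and Gsta4 alone of the transferases passed; Gstk1 was not tested under a filter of 5 FPKM. Gstk1 and Mgst1 lie on chromosome 6, where 311 genes had a median log2 change of 0.19; centred on their neighbours their changes were 0.45 and 0.61.

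Of the other 4 transferases 1 fell and 3 were not called. Gsto1, an omega-class enzyme with thiol transferase activity, fell from 28.4, 28.6 and 28.1 FPKM to 24.7, 22.2 and 24.7 FPKM (log2 change -0.24, limma adjusted p = 0.0118), a call lost without control replicate 1 (limma adjusted p = 0.0530). Gstp1, the pi-class enzyme, was by far the most abundant transferase and was decided by 1 library: it measured 251, 254 and 239 FPKM in control and 173, 183 and 266 FPKM in knockout libraries. Knockout replicates 1 and 2 were below all controls and replicate 3 was above them, the gene was not called (log2 change -0.28, limma adjusted p = 0.194), and without knockout replicate 3 it was called lower (log2 change -0.48, limma adjusted p = 0.000546). Knockout replicate 3 also differed from the other knockout libraries with transcript length. Its median deviation on the log2 scale was 0.12 for genes with 1000 to 2000 exon bases and -0.13 for those over 8000. For the shorter class control replicates 2 and 3 deviated by -0.07 and 0.06 from the other controls. That class holds Gstp1, the risen Gsta4, Gstm1, Gstm5 and Gstk1, the fallen Nqo1 and Hmox1, Txn1 and other members. The part of length in their values was not tested. A share of 33.7% of the 50-base stretches of Gstp1 transcripts also occurs in other genes, chiefly the neighbouring copy Gstp2, so its value is uncertain. Of the called transferases Gstm1 shares 18.9% of its stretches with other genes, chiefly the pseudogene Gstm2-ps1. Mgst2 and Mgst3 were not called, with intervals of the log2 change from -0.05 to 0.26 and from -0.35 to -0.01. Unlike the calls, the intervals are not adjusted for the number of genes tested. The knockout libraries of Mgst3 were all below the controls (limma adjusted p = 0.0995), and centred on its neighbours its log2 change was 0.01.

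Gstp1 made up 69.4% to 71.5% of the summed transferase FPKM in control libraries and 52.6% to 61.2% in knockout libraries, so the sum is mostly a reading of Gstp1. All 9 transferases together came to between 344 and 357 FPKM in control and to 328, 325 and 434 FPKM in knockout replicates 1 to 3. Without Gstp1 the other 8 came to between 101 and 106 FPKM in control and between 143 and 169 FPKM in knockout libraries.

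**Figure D2:**
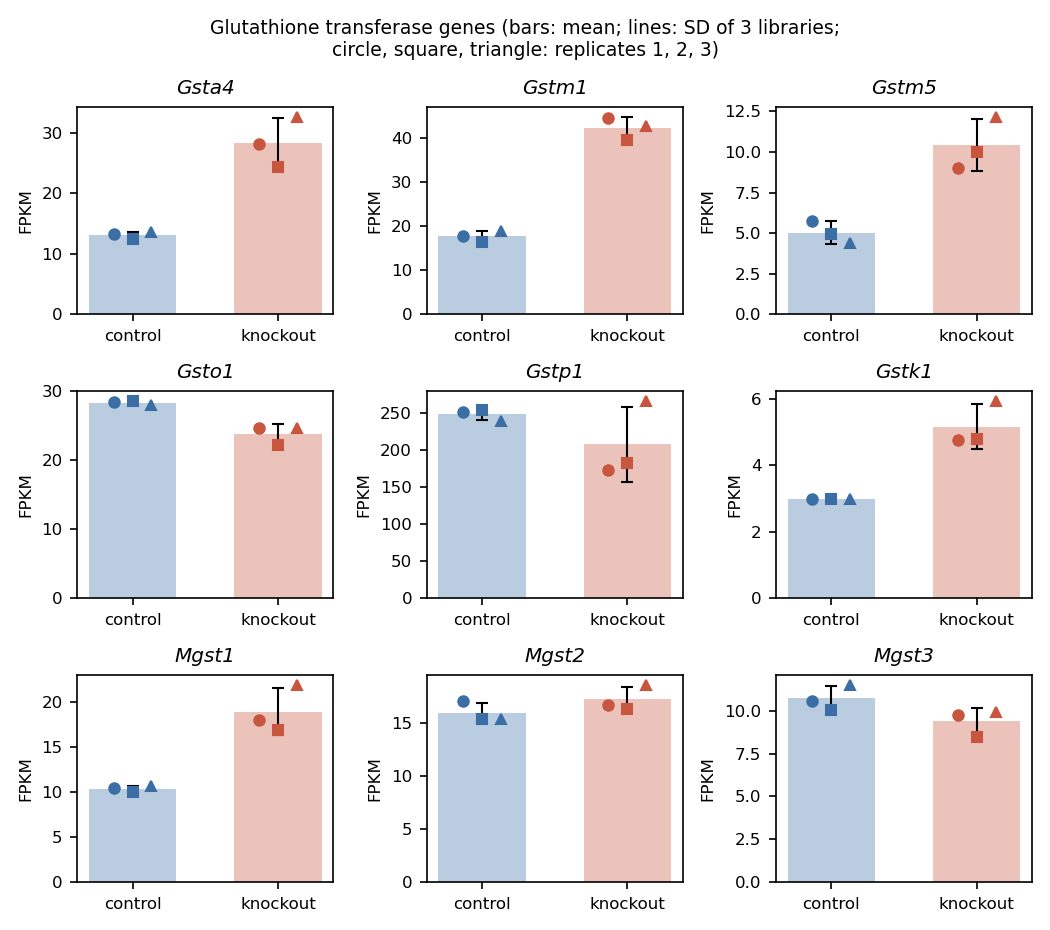
FPKM of the 9 glutathione transferase members in control (blue) and knockout (red) libraries; bars are means, lines are the SD of 3 libraries, and marks are single libraries, each panel with its own axis from 0. The 5 members that rose show separate groups, and in Gstp1 knockout replicate 3, at 266 FPKM, lies above the control libraries while the other knockout libraries, at 173 and 183 FPKM, lie below them.

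Genes close to the transferases that rose were not all called. Gsta4 starts 388.3 kb from the end of Gclc on chromosome 9, and Gsta4 rose while Gclc was not called. Gsta1, 21.3 kb beyond Gsta4, lay between 0 and 0.173 FPKM in every library, under the filter, and was not tested. Gstm1 (108012255 to 108017973) and Gstm5 (107895821 to 107898686) belong to the mu-class cluster on chromosome 3. Gstm2, which lies 25.8 kb from Gstm1, was at 33.0 ± 1.38 FPKM in control cells and 37.3 ± 4.52 FPKM in the knockout (SD, n = 3) and was not called. Gstm4, 22.4 kb from Gstm1, and Gstm7, 27.6 kb from Gstm5, were under the filter and not tested. Gstm7 lay at 0 to 0.141 FPKM in control and 0.169 to 0.361 FPKM in knockout libraries, and the Gstm4 groups overlapped. The difference in change between these neighbours was not tested.

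Of the 2 glutathione peroxidases, which are selenoproteins that reduce peroxides with glutathione, Gpx1 rose and Gpx4 was not called. Gpx1, the abundant enzyme for hydrogen peroxide, measured 104, 89.8 and 108 FPKM in control and 142, 132 and 147 FPKM in knockout libraries, with no overlap (ratio 1.40, log2 change 0.48, limma adjusted p = 0.00198). Gpx4, which reduces phospholipid hydroperoxides and protects against ferroptosis, measured 103, 97.1 and 123 FPKM in control and 123, 116 and 130.1 FPKM in knockout libraries. These overlap, and the adjusted p was 0.122 by limma; without control replicate 3 it was 0.0192. Pseudogene copies contain 34.7% of the 50-base stretches of Gpx4, so its level is uncertain.

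Of the 4 thioredoxin and reductase genes only the mitochondrial reductase was called, and it fell. Txn1, cytosolic thioredoxin, had the highest level of all members, at 365, 361 and 353 FPKM in control and 372, 381 and 460.2 FPKM in knockout libraries. The knockout libraries were all above the controls, but replicate 3 stood far from the other 2 and the gene was not called (limma adjusted p = 0.171). Its reductase Txnrd1, a selenoprotein and an NRF2 target, was at 37.7 ± 0.874 FPKM in control cells and 38.6 ± 1.17 FPKM in the knockout (SD, n = 3), with an interval of the log2 change from -0.08 to 0.15. The mitochondrial reductase Txnrd2 fell, from 7.77, 7.32 and 8.86 FPKM to 5.68, 5.29 and 5.64 FPKM (ratio of control to knockout 1.44, log2 change -0.46, limma adjusted p = 0.00200). Its groups did not overlap. Mitochondrial thioredoxin Txn2, the substrate of Txnrd2, was at 16.1 ± 0.681 and 14.8 ± 0.637 FPKM (SD, n = 3) and was not called.

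Of the 7 genes for peroxiredoxins and sulfiredoxin 0 were called by limma, and 0 by limma-voom on recovered reads; 2 of them, Prdx3 and Prdx5, had an unadjusted p under 0.05. Limma called 35.6% of all tested genes, and limma-voom called 18.4% higher and 20.1% lower. Peroxiredoxins are thiol peroxidases that are recycled by thioredoxin (Prdx6 by glutathione), and Srxn1 encodes sulfiredoxin, which repairs them when they are over-oxidised. The 7 genes had log2 changes between -0.15 (Prdx3, mitochondrial) and 0.19 (Prdx5), a median of 0.07, and levels in control cells from 31.2 FPKM for Prdx5 to 266 FPKM for Prdx1. Prdx3 was below the controls in all 3 knockout libraries (68.9, 67.6 and 74.5 against 78.4, 78.7 and 77.1 FPKM, limma adjusted p = 0.0639) and was called lower without knockout replicate 3 (limma adjusted p = 0.00893). Prdx4, the peroxiredoxin of the endoplasmic reticulum, was above the controls in all 3 (42.8, 42.1 and 50.02 against 40.5, 39.1 and 41.0 FPKM, limma adjusted p = 0.121). Prdx2 lies on chromosome 8, and centred on its neighbours its log2 change of 0.07 became 0.35 and was called (limma adjusted p = 0.00574). Centring also gave a call for Prdx4 (log2 change 0.27, limma adjusted p = 0.0415). Srxn1, a well-known NRF2 target, was at 33.5 ± 1.13 FPKM in control cells and 34.99 ± 0.472 FPKM in the knockout (SD, n = 3). The 7 members summed to between 570.0 and 584 FPKM in control and to 569, 574 and 647 FPKM in knockout replicates 1 to 3, so only replicate 3 was outside the control range by more than 1 FPKM.

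The superoxide dismutases rose and catalase fell. Sod2, the manganese enzyme of mitochondria, measured 16.5, 16.3 and 16.4 FPKM in control and 21.1, 20.2 and 21.4 FPKM in knockout libraries (ratio 1.28, log2 change 0.33, limma adjusted p = 0.00133). Other genes hold 21.0% of the 50-base stretches of Sod2, so its level is uncertain. Sod1, the copper-zinc enzyme of the cytosol, measured 259.7, 254 and 259.8 FPKM in control and 291, 295 and 338 FPKM in knockout libraries (ratio 1.19, log2 change 0.25, limma adjusted p = 0.0234). Cat encodes catalase, the peroxisomal enzyme that splits hydrogen peroxide, and measured 41.9, 40.6 and 42.5 FPKM in control and 29.8, 30.03 and 29.7 FPKM in knockout libraries. Its libraries were tightly grouped and far apart (ratio of control to knockout 1.40, log2 change -0.47, SE 0.047, limma adjusted p = 0.000132). The Sod1 call was lost without control replicate 1, 2 or 3 (limma adjusted p up to 0.0808), without the filter on low values and after centring on neighbours, where the limma adjusted p was 0.0545. The Sod2 and Cat calls held in every alternative but the test against a 1.5-fold change.

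Of the 4 pentose phosphate members, the NADPH-forming G6pdx and Pgd fell, and Taldo1 and Tkt of the sugar rearrangements were not called. G6pdx encodes glucose-6-phosphate dehydrogenase, the first and rate-limiting step, and lies on chromosome X (74409483 to 74429194). It fell from 68.5, 72.0 and 72.5 FPKM to 56.8, 53.1 and 57.8 FPKM (ratio of control to knockout 1.27, log2 change -0.34, limma adjusted p = 0.00187). Pgd, 6-phosphogluconate dehydrogenase, fell by a like amount, from 43.5, 40.2 and 44.6 FPKM to 35.3, 32.1 and 33.8 FPKM (ratio 1.27, log2 change -0.33, limma adjusted p = 0.00329). All knockout libraries were below all control libraries in both genes. Taldo1 (transaldolase) was at 37.0 ± 0.360 and 35.7 ± 1.75 FPKM and Tkt (transketolase) at 63.7 ± 5.41 and 69.9 ± 2.76 FPKM in control and knockout cells (SD, n = 3), with limma adjusted p of 0.487 and 0.169. Exons of Ikbkg on the opposite strand cover 13.6% of the exon bases of G6pdx. Whether these pairs differ in their change was not tested.

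**Figure D3:**
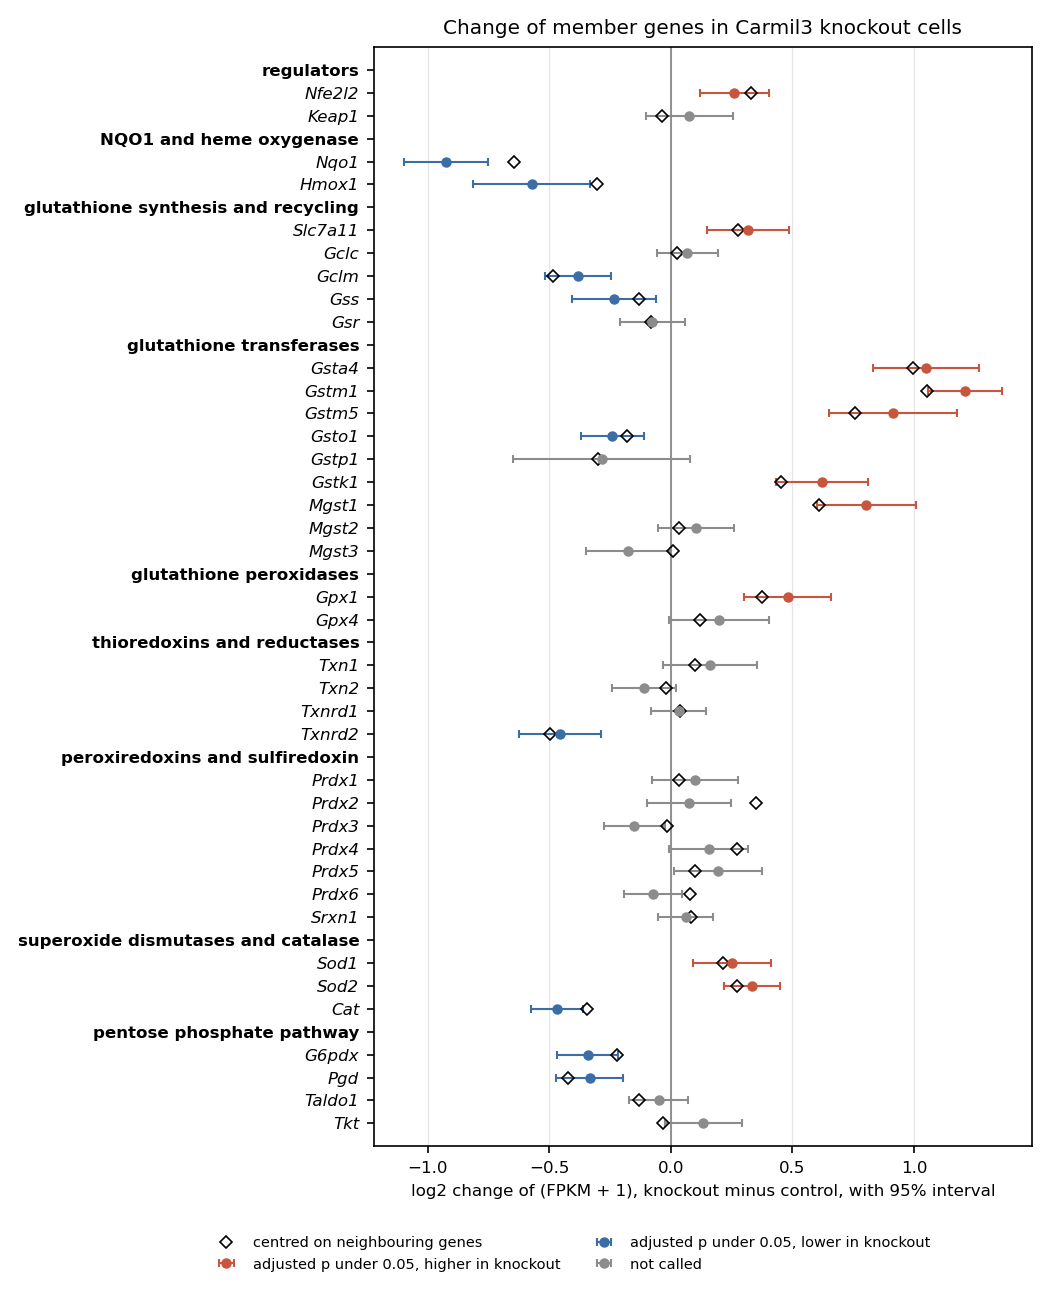
Log2 change of (FPKM + 1) with its 95% interval for the 38 members by role (red called higher, blue called lower, grey not called), and, as open diamonds, the change after centring on neighbouring genes. The 5 rising transferases reach from 0.62 to 1.21, Nqo1 and Hmox1 lie at -0.93 and -0.57, and the 7 peroxiredoxin and sulfiredoxin genes lie between -0.15 and 0.19.

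Other genes of the same pathways, from lists of 103 genes of which 100 were in the table and 78 were tested, also moved in both directions. Of these 78 genes 24 rose (30.8%, background 16.9%) and 11 fell (14.1%, background 18.7%). These backgrounds are not matched for expression level, and the lists were chosen with earlier results of these data known. Of the 35 calls 20 were kept in every alternative, besides the 1.5-fold test, in which the gene was tested. Among 16 other NRF2 targets 5 rose and 4 fell. Esd, which encodes S-formylglutathione hydrolase of formaldehyde breakdown, rose from 76.8 ± 2.60 to 164 ± 13.2 FPKM and the aldehyde dehydrogenase gene Aldh3a1 from 13.8 ± 0.901 to 26.5 ± 0.102 FPKM (SD, n = 3). Fth1, the ferritin heavy chain, rose from 2352 ± 179 to 3386 ± 339 FPKM (SD, n = 3); with quantile normalization its log2 change was 0, since that setting gives genes of equal rank equal values. Osgin1, an NRF2-induced growth inhibitor on chromosome 8, fell from 5.51 ± 0.791 to 2.93 ± 0.342 FPKM, the malic enzyme gene Me1 from 30.8 ± 1.08 to 18.7 ± 1.199 FPKM and the efflux pump gene Abcc4 from 8.85 ± 0.410 to 5.48 ± 0.750 FPKM (SD, n = 3). Blvrb, which encodes biliverdin reductase B, rose (log2 change 0.39) and Ephx1, microsomal epoxide hydrolase, fell (-0.30). The Ephx1 call was lost without control replicate 1, 2 or 3 or knockout replicate 2.

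The partners of NRF2 changed little. Of 9 genes Bach1, a repressor that competes for the same elements, rose (log2 change 0.22), and the small MAF gene Mafk and the KEAP1-binding Dpp3 fell (-0.31 and -0.18). Each of these 3 calls was lost without control replicate 3 or knockout replicate 2, those of Bach1 and Dpp3 also without control replicate 1, and those of Bach1 and Mafk also without knockout replicate 1. The other 6, including Cul3, Mafg and Sqstm1, were not called. The share of all tested genes called was 35.6%.

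Among 16 other tested glutathione genes 5 rose and 0 were called lower by limma, where 2 had a lower value with an unadjusted p under 0.05 and 1 was called lower by limma-voom on recovered reads. Cth, which makes cysteine from cystathionine, rose from 12.8 ± 0.715 to 29.6 ± 2.23 FPKM and Glrx, glutaredoxin 1, from 4.98 ± 0.395 to 8.51 ± 0.581 FPKM (SD, n = 3). Chac1, an enzyme that breaks glutathione down, rose from 7.70 ± 0.586 to 11.2 ± 0.5997 FPKM (SD, n = 3), and Lancl1 rose by 0.45 on the log2 scale. Slc3a2, the chain that carries Slc7a11 to the membrane, rose from 29.2 ± 1.35 to 33.9 ± 1.68 FPKM (SD, n = 3), a call lost without control replicate 1 or 2 or knockout replicate 1. The list of targets of ATF4, a stress-induced transcription factor, also holds Atf4 itself. In it 7 of 12 tested genes rose, 1 fell and 4 were not called. Over all tested genes 16.9% were called higher and 18.7% lower. Of the 7 rises that of Asns was lost without control replicate 1 or 3 or knockout replicate 2. The Slc3a2 rise, also among the 7, was lost as given above. Sesn2, another of the 7, lost its call after centring on neighbouring genes (log2 change 0.10). Atf4 rose from 99.9 ± 3.49 to 127 ± 8.25 FPKM, Atf5 from 14.6 ± 0.608 to 24.2 ± 0.848 FPKM and Ddit3 from 2.96 ± 0.203 to 4.38 ± 0.339 FPKM, while Ddit4 fell from 35.6 ± 3.55 to 22.0 ± 3.12 FPKM (SD, n = 3). Chac1, Slc3a2 and Sesn2 are counted in 2 lists.

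Txnip, the inhibitor of thioredoxin and of glucose uptake, had a larger change than any member. It measured 10.0, 9.37 and 10.1 FPKM in control and 28.1, 26.9 and 31.6 FPKM in knockout libraries, a ratio of 2.94 (log2 change 1.46, limma adjusted p = 1.77e-06). Of the 12 other tested thioredoxin and superoxide genes Txndc12 and Sesn2 rose as well (log2 changes 0.52 and 0.31) and Txnl1 fell (-0.27), the last call being lost without control replicate 1 or 2 or knockout replicate 1 or 2, without the filter on low values, and after centring on neighbouring genes, where the log2 change was -0.09. Of 16 other tested genes of the pentose phosphate pathway and of NADPH supply 6 rose and 3 fell. Beside these counts, 16.9% of all tested genes were called higher and 18.7% lower. Nadk, which makes NADP from NAD in the cytosol, rose from 55.5 ± 2.81 to 78.4 ± 2.57 FPKM, and Idh2, the mitochondrial NADP-dependent isocitrate dehydrogenase, from 64.5 ± 4.25 to 81.1 ± 1.39 FPKM (SD, n = 3). Me2, a mitochondrial malic enzyme, fell from 62.2 ± 1.11 to 45.7 ± 2.30 FPKM, Mthfd1 of folate metabolism from 38.4 ± 0.904 to 30.2 ± 1.08 FPKM and the ribose-5-phosphate isomerase gene Rpia from 4.43 ± 0.263 to 3.47 ± 0.155 FPKM (SD, n = 3). Nadk2 and Mthfd2 had log2 changes of 0.27 and 0.25. The remaining rises counted were Aldh1l2 and Shmt2 (log2 changes 0.37 and 0.16). Besides the 1.5-fold test their calls were kept in only 5 of 15 and 7 of 16 alternatives. The call of Nadk2 was lost without control replicate 1, 2 or 3 or knockout replicate 1, and without the filter on low values. Centring on neighbouring genes ended the calls of Bach1, Ephx1, Slc3a2, Blvrb, Txnl1, Sesn2, Mthfd1, Mthfd2, Aldh1l2 and Shmt2. Testing without the filter ended those of Bach1, Dpp3, Ephx1, Slc3a2, Txnl1, Aldh1l2, Nadk2, Shmt2 and Asns.

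**Figure D4:**
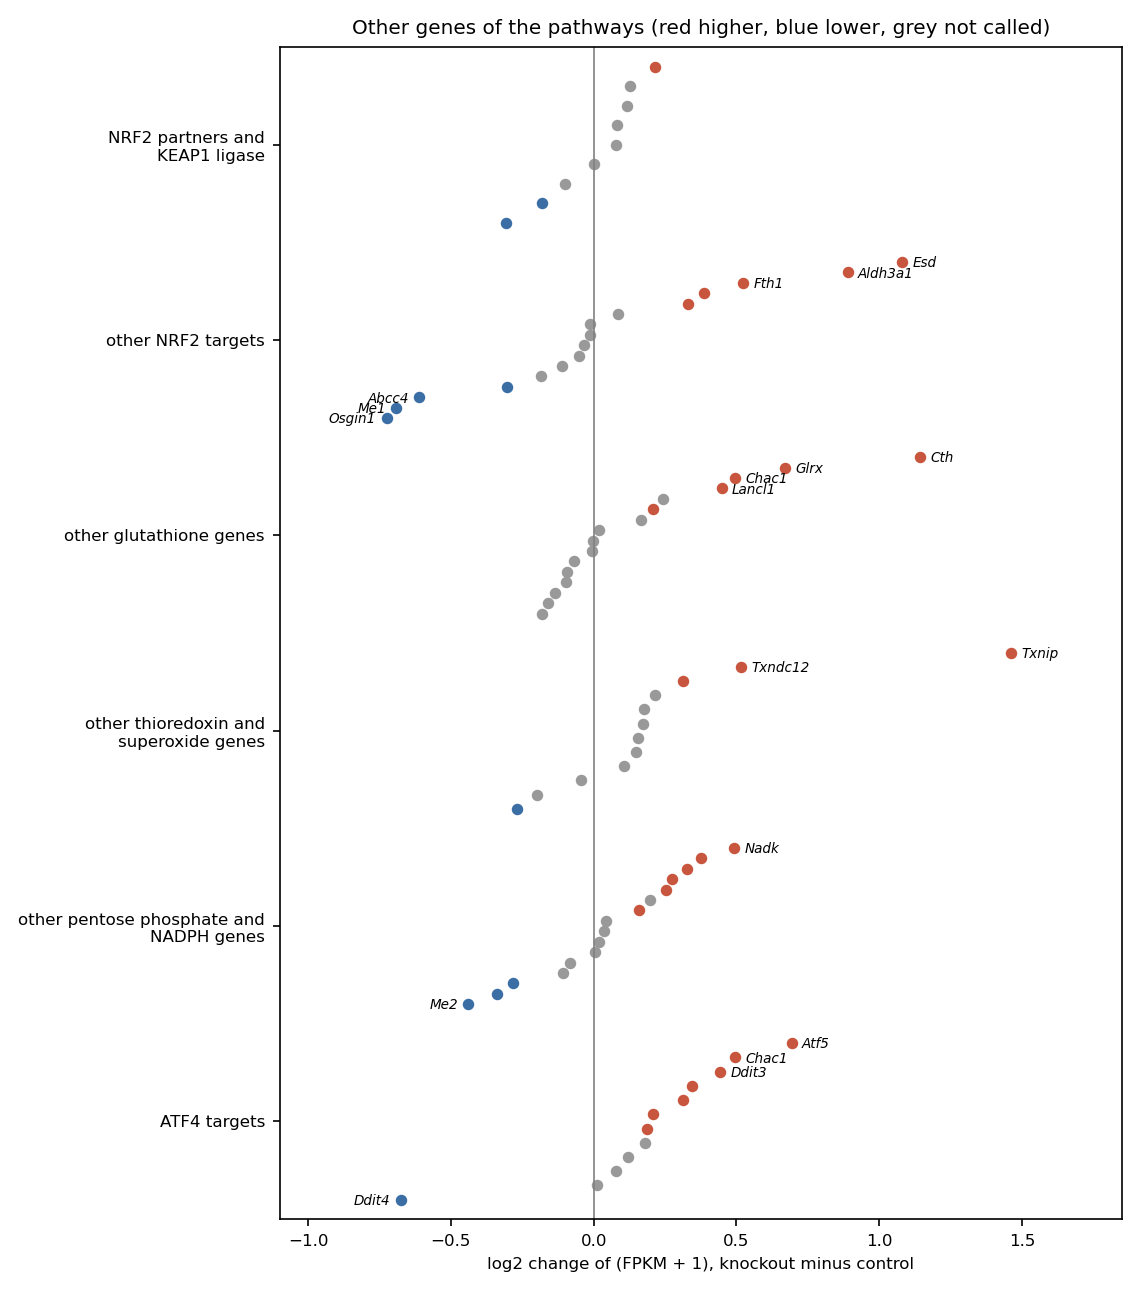
Log2 change of (FPKM + 1) of the tested genes of the 6 other pathway lists, red called higher, blue called lower and grey not called, with names for called genes past 0.4; genes in 2 lists appear in both. Txnip lies at 1.46, Cth at 1.14 and Esd at 1.08, and Osgin1, Me1, Ddit4 and Abcc4 lie below -0.6.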

How the data were processed

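RNA from 3 control and 3 Carmil3 knockout 4T1 libraries was sequenced, and the authors deposited 1 table of FPKM values for 23644 genes; 57 rows have no symbol in GENCODE M21 (GRCm38), the source of the symbols and positions given. The submitters' processing notes name CASAVA, Bowtie, Bowtie2, TopHat2 2.0.12, HTSeq 0.6.0 and the build mm10 without saying which step each served. The sources used here name neither the gene annotation nor the strand setting. The 38 members and the other lists were chosen with earlier results of these data known.

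Log2(FPKM + 1) values were fitted with limma 3.58.1 in R 4.3.3 (empirical Bayes with trend and robust settings) on the 11171 genes reaching 1 FPKM in 3 or more libraries, with Benjamini-Hochberg adjustment over all of them. Library values are given for Nfe2l2, Keap1 and every called member; of the other lists up to 4 called genes per list and direction were named by size, with a higher group mean of at least 2 FPKM. Values given per library for other members were chosen after values were seen. So were the remarks on Gstm2, Gstm4, Gstm7, Gsta1, Cul3, Mafg, Sqstm1, Sesn2, Slc3a2, Asns, Aldh1l2 and Shmt2. Low FPKM values fall on steps of whole reads, from which relative read totals were recovered: 91.9% to 92.2% of values up to 500 reads were within 0.02 of a whole number, and the reads of all genes sum to 108.7% to 109.1% of that total, so these depths are approximate. Libraries of the same group differed from each other by more than counting noise. On simulated data over 11097 tested genes the fit recovered 93.1% of 58 genes changed 1.5-fold, 94.3% of 70 changed 2-fold and 98.6% of 69 changed 4-fold, and 20 of 208 calls were false. The simulated reads were drawn independently with the same spread setting for every gene. Far fewer genes were changed than were called in the real data. The rates therefore need not hold for the real libraries. Alternatives covered the pseudocount, the filter, the scaling, the test, a replicate block, centring on neighbouring genes and leaving out each library.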

Additional observations from a re-analysis of the deposited data

How the results depend on the processing

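Of the 19 member calls 14 (8 higher, 6 lower) were kept in each of the 16 alternatives besides the 1.5-fold test in which they were tested (15 for Slc7a11 and Gstk1), and the calls of Nfe2l2, Hmox1, Gss, Gsto1 and Sod1 were lost in at least 1. The cause of each change below was not tested. The test against a 1.5-fold change called 118 genes higher and 193 lower of all tested genes, and of the members Gstm1 and Gsta4 higher and Nqo1 lower (2 higher, 1 lower). By role it called 2 transferases higher and 0 lower, and 0 among the regulators, the synthesis and recycling, peroxidase, thioredoxin, dismutase and pentose phosphate genes. Of the other lists it called 2 NRF2 targets, 1 glutathione gene and 1 thioredoxin gene higher and 0 of the rest.

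For synthesis and recycling 1 gene was called lower, in place of 2, with no filter, with a filter of 5 FPKM, after rescaling by median of ratios or by quantile normalization, with the replicate block and after centring, and the filter of 5 FPKM, which drops Slc7a11, Gss and Gstk1, left 0 higher. No filter gave 1 dismutase higher, 0 higher and 1 lower among the NRF2 partners, 0 lower among the other thioredoxin genes and 3 higher among the other NADPH genes. The filter of 5 FPKM gave 1 lower among the partners and 2 lower among the other NRF2 targets. Quantile normalization gave 1 peroxiredoxin lower. Without trend and robust settings, with limma-voom and with centring 1 other glutathione gene was called lower. Centring gave 1 lower for Nqo1 and Hmox1, 2 peroxiredoxins higher and 1 dismutase higher. With a replicate block 2 peroxidases, 1 peroxiredoxin and 5 other thioredoxin genes were called higher; replicate numbers only name the libraries (correlations of same-numbered libraries -0.06, 0.15 and 0.10).

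Leaving out each library in turn gave 1182 to 2041 genes higher and 1358 to 2218 lower, lowest in both without control replicate 1. Members called were 8 to 11 higher and 7 to 11 lower. Ranges were 0 to 1 higher for the regulators, 1 to 2 lower for synthesis, 0 to 2 lower for the transferases, 1 to 2 higher for the peroxidases, 0 to 1 in each direction for the peroxiredoxins and 1 to 2 higher for the dismutases. For the other lists they were 0 to 1 higher and 0 to 2 lower for the partners, 3 to 4 lower for the NRF2 targets, 4 to 6 higher and 0 to 1 lower for glutathione, 0 to 1 lower for thioredoxin, 3 to 7 higher for NADPH and 5 to 7 higher for ATF4 targets. Among the members, only changes that were not called turned sign: Prdx2, which ranged from -0.0055 without knockout replicate 3 to 0.124 without knockout replicate 2, and, after centring, Keap1 (-0.0361), Mgst3 (0.0108), Prdx6 (0.0775) and Tkt (-0.0323); of the other genes named, Mafg (not called) went from 0.0028 to -0.0363. Clone, culture and knockout cannot be told apart, protein and enzyme activity were not measured, and the depth of 78 to 158 reads limits Gstk1.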
